A study of Bos taurus with 13 samples.

Results

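Calves of cows given a mixture of organic and inorganic selenium were compared with the midpoint of calves whose dams received either form alone, across all 26773 probe sets measured in newborn testis. The comparison used all 13 arrays of the series, chosen by their labels: 4 Mix, 4 OSe and 5 ISe calves. For each probe set the Mix mean was set against the average of the OSe mean and the ISe mean. A Mix mean between those means was called intermediate, and a Mix mean above both or below both was called outside the interval.

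All dams were Angus cross cows with free access to a vitamin-mineral mix holding 35 ppm of selenium, from 4 months before breeding through gestation. In the Mix group 50% of the selenium came from each source. In the OSe group it was the organic product Sel-Plex, a selenium yeast, and in the ISe group it was sodium selenite. Groups of 8 cows were assigned at random, 24 in all, and testes of their bull calves were taken within 2 days of birth. Every array came from a different calf, and the errors given here therefore include differences between animals. No group without selenium was part of the series, so it compares groups given different forms and not selenium with none.

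Selenite is reduced in cells to selenide, whereas selenium yeast carries mainly selenomethionine, which can also enter proteins in place of methionine. Both feed the selenide pool from which selenocysteine is made, the amino acid of glutathione peroxidases, thioredoxin reductases and other selenoproteins. The newborn testis holds gonocytes and early spermatogonia in cords of Sertoli cells, with androgen-producing Leydig cells, peritubular cells, vessels and macrophages between the cords.

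Markers of testis were bright in every calf. On the deposited log2 scale INSL3, a peptide hormone of Leydig cells, ran from 13.26 to 13.74 in Mix, from 12.86 to 13.66 in OSe and from 13.32 to 13.54 in ISe. AMH, made by Sertoli cells, ran from 12.19 to 12.69 in Mix, from 12.14 to 12.77 in OSe and from 12.42 to 12.66 in ISe. The array of OSe animal 2 stood apart, with a median of 7.74 over all probe sets, against 7.61 to 7.65 on the other arrays. Counts that moved most without it are given with their values without it. The number of arrays limits the precision.

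No probe set passed the test for a difference between Mix and the midpoint. In limma's moderated test 0 of 26773 (0%) had an adjusted p under 0.05, and the lowest adjusted p was 0.142. It belonged to RNF141 and to a dim probe set without a gene symbol, which was picked out here after its value was seen. At an unadjusted p under 0.05 there were 717 probe sets higher in Mix (2.68%) and 1264 lower in Mix (4.72%), together 7.4% of all. The unmoderated linear model gave 0 past the adjusted threshold, with 698 higher and 1167 lower at an unadjusted p under 0.05. The split between directions moved with the scaling of the arrays: quantile normalization gave 896 higher and 1027 lower, and leaving out OSe animal 2 gave 886 higher and 917 lower. Genes are therefore named below by their rank and position, and not as changed genes.

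The Mix mean lay outside the interval at 20500 probe sets, 76.6% of all, with 9817 above both means (36.7%) and 10683 below both (39.9%). At the other 6273 (23.4%) it was intermediate. Which side held more turned with the arrays used: 10768 lay above and 9605 below without OSe animal 2, 10552 and 10267 without Mix animal 3, 10885 and 9585 after quantile normalization, and 10502 and 10177 after median centring. These recounts, and those of the larger departures, were chosen after seeing the data. The interval was mostly narrow against the spread between calves. Its median width was 0.071 on the log2 scale, the median distance of the Mix mean from the midpoint was 0.089, and the median standard deviation between calves of a group was 0.172. Where the interval was narrowest, at widths up to 0.032, 93.6% of probe sets had Mix outside it. In the widest 1 percent (over 0.509), 41.4% had Mix outside. Most positions thus rested on differences smaller than the spread between calves, and the position alone is a description. Where groups do not differ, the Mix mean is still often the highest or lowest of the group means. The share outside the interval is therefore no measure of non-additive genes.

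Larger departures lay more often below than above. The Mix mean exceeded the nearer of the other means by over 0.25 at 473 probe sets (1.77%) and lay below it by over 0.25 at 957 (3.57%). Beyond 0.5 there were 30 above (0.112%) and 112 below (0.418%), and beyond 1 there were 0 above and 3 below. Without OSe animal 2 the counts beyond 0.25 were 504 above and 801 below, and those beyond 0.5 were 30 and 99. Those above by over 0.25 were 870 without Mix animal 1, 759 without Mix animal 2, 713 without Mix animal 4 and 719 without ISe animal 4, with more below in each case. Beyond 0.5 there were 69 above without Mix animal 1, 55 above without Mix animal 3 and 183 below without Mix animal 2. Near the boundary, 1557 probe sets lay just outside the interval and 1443 just inside it, within 0.01 of either mean. An example just inside was the sodium channel SCN3A, whose Mix mean of 6.703 stood above an ISe mean of 6.700. Somewhat further outside, SOX9, a Sertoli cell transcription factor, had a Mix mean 0.021 below the ISe mean.

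**Figure D1:**
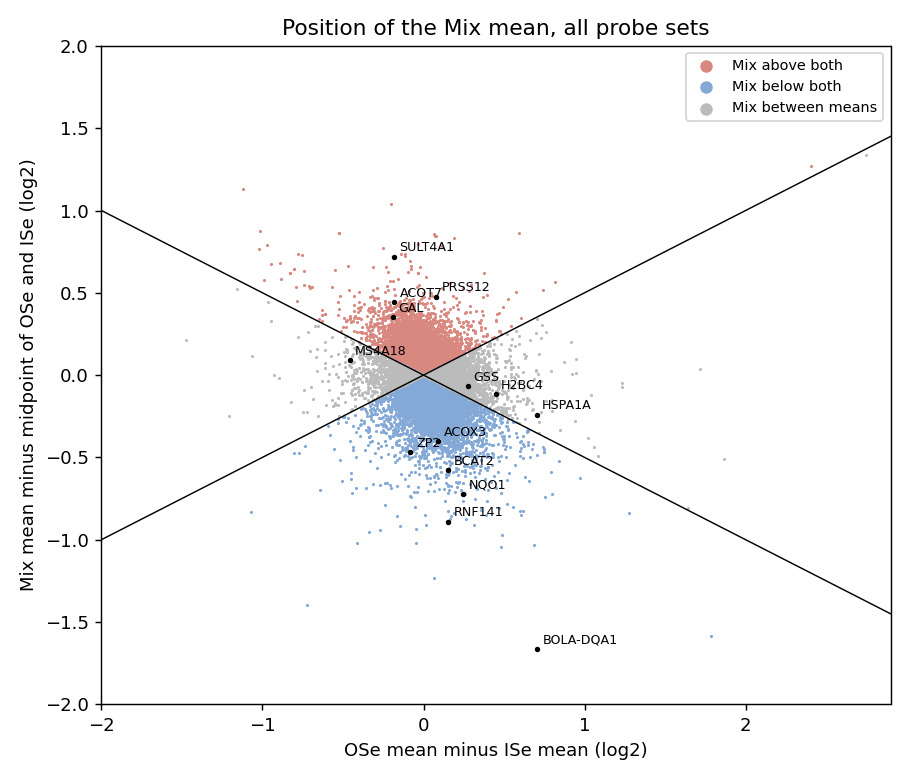
Each point is a probe set, placed by the OSe mean minus the ISe mean (horizontal axis, log2) and the Mix mean minus the midpoint of both (vertical axis, log2). The black lines mark Mix equal to the OSe mean or the ISe mean: grey points lie between the means, red above both and blue below both. The blue points reach further from the lines than the red ones, with 112 against 30 probe sets more than 0.5 beyond the nearer mean.

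Being outside the interval needs a difference from each form. Requiring an unadjusted p under 0.05 against OSe and against ISe, in the same direction, left 149 probe sets above both (0.557%) and 309 below both (1.15%). After adjustment over all probe sets 0 were left (0%). These tests share the Mix arrays. The counts moved to 247 above and 520 below without ISe animal 4, to 243 and 492 without Mix animal 1 and to 227 above without Mix animal 3. Without ISe animal 3 or ISe animal 5 there were 176 and 204 below. All 4 Mix arrays lay above the 9 others at 39 probe sets (0.146%) and below the 9 others at 56 (0.209%). Some probe sets separate in this way where groups do not differ, and these counts were not tested. Leaving out any Mix calf raised these counts to between 90 and 135 above and between 175 and 204 below, since fewer Mix calves then had to stand apart. Without ISe animal 4 they were 92 and 165, without ISe animal 2 they were 63 and 88, and without OSe animal 2 there were 74 above.

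The genes furthest below both forms by p were RNF141, ACOX3, ZP2, ZNF572, BOLA-DQA1, NQO1, MOCS2, MIR374B, SLC52A3 and BCAT2. Since p chose them, their values describe them and do not test them. All 4 Mix arrays lay below the 9 others for 5 of these 10, against 0.228% of the 14480 probe sets eligible for naming, of which 42.8% lay below both means. RNF141, a RING finger protein (probe set 12729509), measured 8.79, 8.78, 9.41 and 9.27 in Mix calves, against 9.93, 9.83, 10.16 and 10.20 in OSe calves and 9.94, 9.82, 9.67, 9.86 and 10.10 in ISe calves. The Mix calves did not overlap with the 9 others, and Mix lay 0.89 ± 0.13 (SE) below the midpoint, or 1.85-fold. It lay 0.81 ± 0.14 (SE) below the nearer form, ISe.

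ACOX3, the peroxisomal oxidase of branched fatty acids (probe set 12873877), measured 8.39, 8.13, 8.20 and 8.10 in Mix, against 8.73, 8.75, 8.64 and 8.49 in OSe and 8.57, 8.53, 8.50, 8.59 and 8.62 in ISe. Every Mix calf was below every other calf. The Mix minus midpoint difference was -0.40 ± 0.07 (SE, 1.32-fold lower; limma adjusted p = 0.642). ZP2, a coat glycoprotein of the egg, measured 9.34, 8.84, 9.16 and 9.23 in Mix, against 9.67, 9.68, 9.45 and 9.49 in OSe and 9.58, 9.64, 9.74, 9.80 and 9.51 in ISe. The Mix values were again the 4 lowest, with a difference of -0.47 ± 0.09 (SE, 1.38-fold lower; adjusted p = 0.659).

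MOCS2, an enzyme of molybdenum cofactor synthesis, had the tightest Mix values of these genes, at 7.48, 7.50, 7.54 and 7.59, against 7.82, 7.72, 8.06 and 7.79 in OSe and 7.91, 7.78, 7.88, 7.74 and 7.89 in ISe. Its OSe and ISe means differed by 0.0059, and Mix lay 0.31 ± 0.08 (SE) below the nearer of them. The zinc finger gene ZNF572 likewise had nearly equal OSe and ISe means, at 7.78 and 7.80, and a Mix mean of 7.48 ± 0.10 (SD, n = 4). NQO1, the quinone reductase induced by the oxidative stress factor NRF2, measured 8.20, 8.28, 8.54 and 7.61 in Mix, against 8.80, 9.23, 9.05 and 8.96 in OSe and 8.83, 8.67, 8.69, 8.50 and 9.11 in ISe. The highest Mix calf overlapped with ISe animal 4. The difference was -0.72 ± 0.15 (SE, 1.65-fold lower), and -0.54 without Mix animal 4.

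BOLA-DQA1, an alpha chain of the class II histocompatibility molecule, had the largest difference of the 10, at -1.66 ± 0.35 (SE, 3.17-fold lower). It measured 8.58, 7.99, 7.38 and 7.84 in Mix, against 10.54, 10.08, 10.08 and 9.17 in OSe and 9.89, 9.57, 8.50, 10.06 and 8.29 in ISe. ISe animals 3 and 5 lay within the Mix range. The DQ genes are polymorphic and partly duplicated in cattle, so the probe set may not be specific to 1 copy or read every allele alike. A dimmer probe set of the same gene, with a mean of 4.39, lay on the opposite side, 0.38 above the midpoint.

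The remaining genes of this side overlapped with other calves. The microRNA locus MIR374B ran from 8.66 to 8.93 in Mix, against 9.29 to 9.40 in OSe and 8.92 to 9.52 in ISe. SLC52A3, a riboflavin transporter, ran from 9.97 to 10.54 in Mix, from 10.63 to 10.89 in OSe and from 10.48 to 10.81 in ISe. BCAT2, the mitochondrial aminotransferase of branched-chain amino acids, measured 8.68, 7.71, 8.32 and 8.23 in Mix, against 8.78 to 9.01 in OSe and 8.59 to 8.90 in ISe. Its difference of -0.58 ± 0.13 (SE) was -0.40 without Mix animal 2.

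Above both forms the leading genes by p were MCTP2, GAL, ATP4A, SHOX, SLC43A3, PRSS12, HOXB9, ACOT7, SULT4A1 and CABYR. Here too all 4 Mix arrays lay above the 9 others for 5 of 10, against 0.138% of the eligible probe sets, of which 36.9% lay above both means, and p chose the genes. The side above was dimmer than the side below: 6 of these 10 had a mean under 7, against 0 of the 10 below, and 25% of all probe sets had a mean under 6.26. Over all 717 probe sets higher in Mix at an unadjusted p under 0.05 the median level was 7.12, against 8.31 over the 1264 lower ones and 7.64 over all probe sets. The part of signal level in this contrast was not tested.

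MCTP2, a membrane protein with calcium-binding C2 domains (probe set 12793045), measured 7.21, 7.20, 7.14 and 7.21 in Mix, against 6.80, 6.90, 6.89 and 6.81 in OSe and 6.59, 6.88, 6.76, 6.98 and 6.92 in ISe. The Mix calves differed from each other by less than the calves of either other group, and the difference was 0.35 ± 0.07 (SE, 1.27-fold higher; limma adjusted p = 0.659). SLC43A3, a solute carrier well above the dim range, measured 8.53, 8.42, 8.45 and 8.49 in Mix, against 8.30, 8.31, 8.13 and 8.21 in OSe and 8.19, 8.30, 8.11, 8.27 and 8.29 in ISe. Its OSe and ISe means differed by 0.0086, and Mix lay 0.23 ± 0.07 (SE) above the nearer mean. The homeobox gene SHOX also had nearly equal means of 6.53 in OSe and 6.53 in ISe, with 6.84 ± 0.06 (SD, n = 4) in Mix.

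PRSS12, a secreted serine protease also called neurotrypsin, measured 9.55, 9.90, 9.42 and 9.75 in Mix, against 9.37, 9.24, 9.18 and 9.10 in OSe and 9.45, 9.15, 8.80, 9.37 and 8.94 in ISe. Mix animal 3 and ISe animal 1 overlapped, and the difference was 0.48 ± 0.12 (SE, 1.39-fold higher). SULT4A1, a cytosolic sulfotransferase family member best known from neurons, had the largest difference, at 0.72 ± 0.19 (SE, 1.65-fold higher). It measured 9.11, 9.42, 9.62 and 9.32 in Mix, against 8.94, 8.35, 8.60 and 8.34 in OSe and 8.57, 9.01, 8.09, 9.36 and 8.67 in ISe, and only ISe animal 4 reached the Mix range. ACOT7, an acyl-CoA thioesterase, ran from 8.75 to 9.13 in Mix, from 8.26 to 8.69 in OSe and from 8.33 to 8.88 in ISe.

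Among the dim genes of this side, HOXB9, a homeobox gene of body axis patterning, ran from 6.61 to 6.74 in Mix, from 6.34 to 6.49 in OSe and from 6.11 to 6.47 in ISe. ATP4A, the catalytic subunit of the gastric proton pump, ran from 6.78 to 6.96 in Mix, from 6.25 to 6.66 in OSe and from 6.44 to 6.68 in ISe. The neuropeptide gene GAL ran from 6.78 to 6.91 in Mix, from 6.23 to 6.52 in OSe and from 6.34 to 6.79 in ISe. CABYR, a calcium-binding protein of the sperm tail, ran from 6.88 to 7.43 in Mix, from 6.58 to 6.80 in OSe and from 6.47 to 7.06 in ISe. HOXB9 and ATP4A did not overlap between Mix and the other calves, and GAL and CABYR did.

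**Figure D2:**
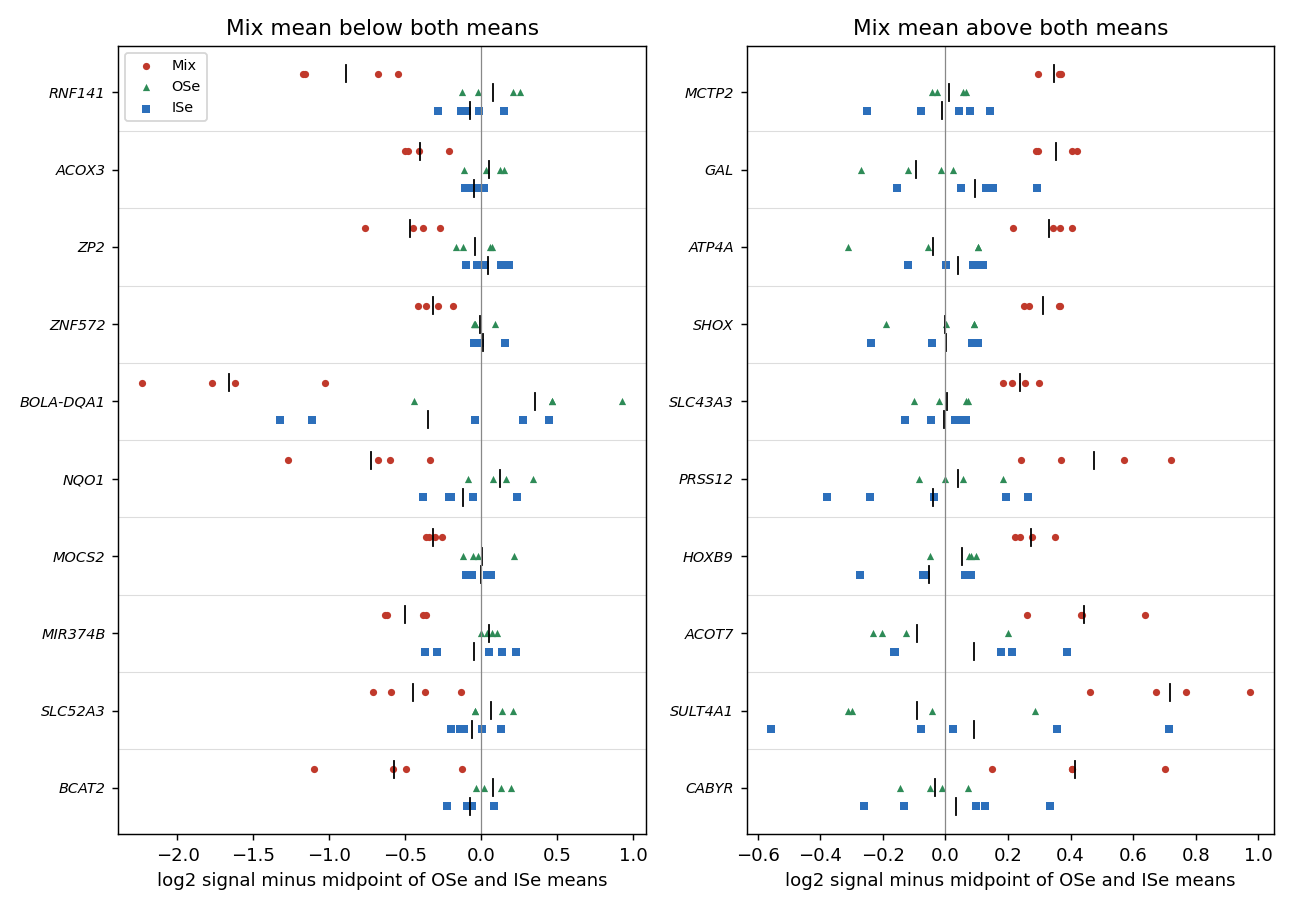
Each point is 1 calf, placed by its log2 signal minus the midpoint of the OSe and ISe means (horizontal axis), for the 10 genes ranked first below both means (left) and above both means (right). Circles are Mix, triangles OSe and squares ISe, black ticks are group means, and the horizontal scales of the panels differ. For RNF141 the signals before the midpoint is subtracted were 8.78 to 9.41 in the 4 Mix calves and 9.67 or higher in all others. BOLA-DQA1 spreads widely in every group.

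The 20 genes were chosen by the p of their distance from the midpoint, so their side of the interval, which was the same when any calf was left out, is no sign of stability. The distance from the midpoint moved by less than 1.5 times for each of them when 1 calf was left out. Among the 10 below, the calf farthest from the midpoint was Mix animal 1 for 3 genes, animal 2 for 3, animal 3 for 1 and animal 4 for 3. Among the 10 above it was Mix animal 1 for 2, animal 2 for 1, animal 3 for 4 and animal 4 for 3.

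The intermediate class was ordered by the difference between OSe and ISe, for which 0 of 26773 probe sets (0%) passed the adjusted test (lowest adjusted p 0.99987). At an unadjusted p under 0.05, 512 (1.91%) were higher and 189 (0.706%) lower in OSe. Without OSe animal 2 the excess turned round, with 262 higher and 371 lower. Without ISe animal 3 there were 313 lower, and quantile normalization gave 381 higher and 332 lower. Of the 447 of these with an intermediate Mix mean, 49.0% had a mean under the 25th percentile, so the class was rich in dim probe sets. Over all intermediate probe sets, the Mix mean was nearer to ISe in 55.0%, a share that was not tested. The genes named here were the first by p of OSe minus ISe on each side. Since that p chose them, the place of Mix between the forms describes them and does not test likeness to either form. How many of all probe sets separate Mix from OSe calves was not counted.

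On the side higher in OSe, the Mix means of the named genes lay nearer to ISe than to OSe. GSS, the enzyme of the last step of glutathione synthesis, measured 7.86, 7.95, 7.85 and 7.90 in Mix, against 7.98, 8.14, 8.15 and 8.11 in OSe and 7.90, 7.76, 7.81, 7.81 and 7.83 in ISe. The Mix mean lay 25.5% of the way from the ISe mean to the OSe mean, every Mix calf was below every OSe calf, and OSe minus ISe was 0.28 ± 0.06 (SE). H2BC4, a histone gene, averaged 12.17 ± 0.16 (SD, n = 4) in Mix, 12.52 ± 0.06 (n = 4) in OSe and 12.07 ± 0.17 (n = 5) in ISe, 23.9% of the way. HSPA1A, the inducible 70-kDa class heat shock protein, averaged 9.86 ± 0.38 in Mix, 10.45 ± 0.33 in OSe and 9.75 ± 0.20 in ISe, 15.7% of the way.

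The zinc finger gene ZNF75A lay nearest to the midpoint of the named genes, 47.2% of the way, at 8.03 ± 0.17 (SD) in Mix, 8.24 ± 0.19 in OSe and 7.85 ± 0.13 in ISe. The place of SCN3A was at the edge of the interval. Mix animal 3 measured 7.21, and the other Mix calves 6.44, 6.67 and 6.49. Without that calf, without ISe animal 1, 4 or 5, after quantile normalization or median centring, and with array weights or the replicate block, the gene was below both means. Close copies of H2BC4 and HSPA1A exist, and a probe set may read several of them.

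On the side lower in OSe the named Mix means were also nearer to ISe, except for TGFB2. The chemokine CCL24 measured 8.04, 7.82, 7.89 and 7.86 in Mix, against 7.65, 7.58, 7.41 and 7.78 in OSe and 7.86, 7.87, 8.07, 8.11 and 7.86 in ISe. Mix lay 13.9% of the way from ISe to OSe, and every Mix calf was above every OSe calf. CMTM5 and RELL2, membrane proteins, lay 11.2% and 12% of the way, and MS4A18, a tetraspan membrane protein, 30.2%. The growth factor gene TGFB2 lay 75% of the way, at 9.24 ± 0.08 (SD) in Mix, 9.17 ± 0.27 in OSe and 9.47 ± 0.11 in ISe. Its OSe minus ISe difference of -0.30 was -0.20 without OSe animal 1. Of these 10 genes, 5 were intermediate under all 22 alternatives, and SCN3A, CMTM5, RELL2, HSPA1A and TGFB2 left the interval under at least 1. The filters, the pooling of the 9 other calves and the other moderation leave the position against the group means unchanged. Only the remaining alternatives could move a gene.

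**Figure D3:**
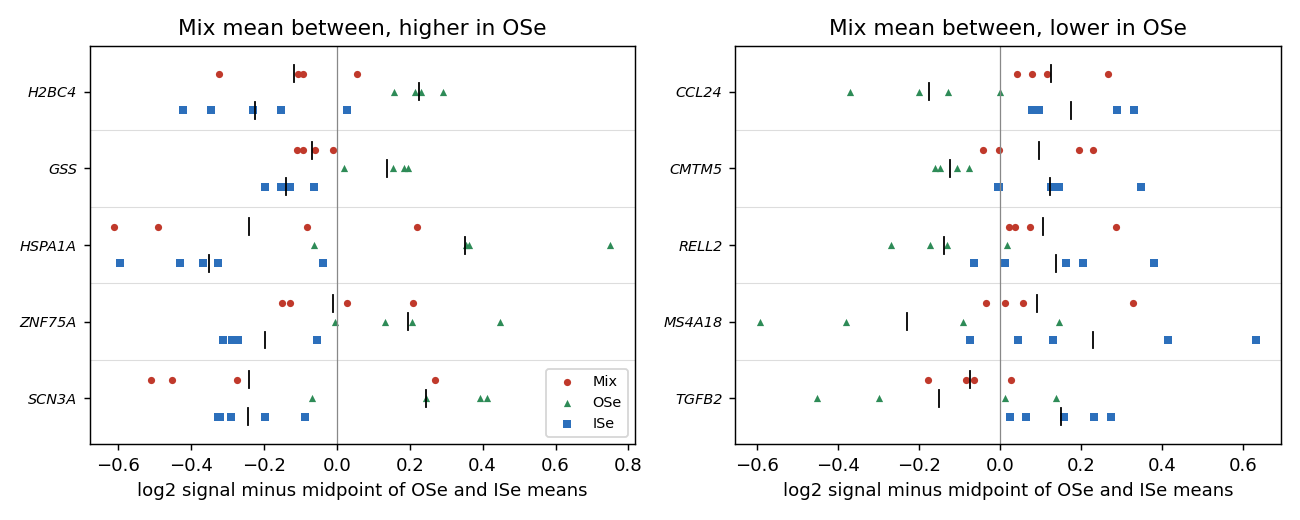
Each point is 1 calf, placed by its log2 signal minus the midpoint of the OSe and ISe means (horizontal axis), for the genes with an intermediate Mix mean that ranked first as higher in OSe (left) or lower in OSe (right). Circles are Mix, triangles OSe and squares ISe, and black ticks are group means. For GSS and CCL24 the Mix calves lie among or beside the ISe calves and apart from every OSe calf.

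Gene lists were described by the position of their members, with 1 probe set a gene. Lists and members were chosen with earlier results of these data known, so their shares and ranks describe and do not test. Over all 18087 genes the Mix mean was above both means in 38%, below both in 40.1% and between them in 21.9%. At an unadjusted p under 0.05, 2.76% were higher and 4.81% lower, and the median difference from the midpoint was -0.0043. In none of the 26 lists did a gene pass the adjusted test, and no set test was run.

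Genes of peroxisomal fatty acid oxidation lay below both forms more often than any other of the 26 lists, in 14 of 17 measured members, with 2 above and 1 between. The median difference was -0.16, and 5 members had an unadjusted p under 0.05, all lower in Mix. Beside ACOX3 they included CROT, which transfers shortened fatty acids to carnitine, at -0.45 ± 0.12 (SE), and SCP2, a sterol carrier and thiolase, at -0.44 ± 0.13. HSD17B4, the second enzyme of the peroxisomal beta-oxidation spiral, was at -0.24 ± 0.08. It measured 10.92, 10.69, 10.85 and 10.82 in Mix, against 10.97, 11.24, 11.07 and 10.98 in OSe and 11.01, 10.98, 11.24, 10.93 and 11.06 in ISe, so that all Mix calves were below all others, by a narrow margin against ISe animal 4. The mean of the list per calf was -0.062, -0.213, -0.147 and -0.250 in Mix animals 1 to 4, from -0.013 to 0.074 in OSe and from -0.147 to 0.035 in ISe, where ISe animal 4 was the low one. The count below both and the median moved by less than 1.5 times when any calf was left out.

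Superoxide dismutases, catalase and peroxiredoxins lay below both forms in 12 of 16 members, with a median of -0.09. The extracellular enzyme SOD3 measured 11.04, 10.55, 10.85 and 10.77 in Mix, against 11.73, 11.30, 10.82 and 11.63 in OSe and 11.69, 11.12, 11.74, 10.85 and 11.90 in ISe. OSe animal 3 and ISe animal 4 lay among the Mix calves, and the difference was -0.61 ± 0.20 (SE). Catalase, CAT, which breaks down hydrogen peroxide in peroxisomes, was at -0.20 ± 0.09, and at -0.13 without Mix animal 4. After quantile normalization 9 members lay below both and 5 above, against 2 above as reported, and the median was -0.06.

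NRF2 targets and genes of glutathione synthesis lay below both forms in 16 of 26 members, with 6 above and a median of -0.07, which was -0.04 without Mix animal 3 or without ISe animal 1. Without Mix animal 4 or OSe animal 1, 3 members lay above. NQO1 was the only member with an unadjusted p under 0.05. The Mix calves were split: the mean of the list per calf was -0.148, 0.002, -0.159 and 0.035 in Mix animals 1 to 4. It ran from -0.092 to 0.075 in OSe and from -0.099 to 0.064 in ISe. Mix animal 4, the lowest calf for NQO1, thus had the highest list mean of the Mix calves. Selenoproteins lay below both in 15 of 25 members, with 3 above and a median of -0.07. That median was -0.04 without OSe animal 2 or Mix animal 1, and -0.05 without Mix animal 3. The members above were 5 without Mix animal 3 or OSe animal 2, and also 5 after quantile normalization.

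GPX3, the secreted glutathione peroxidase, was the only selenoprotein with an unadjusted p under 0.05. It measured 7.81, 7.67, 7.96 and 7.69 in Mix, against 7.89, 8.06, 7.89 and 7.83 in OSe and 8.30, 7.99, 8.24, 8.04 and 8.18 in ISe. Mix lay below every ISe calf and overlapped with OSe, and the difference from the midpoint was -0.25 ± 0.08 (SE). Against the nearer form, OSe, it was -0.13 ± 0.09. TXNRD1, the cytosolic thioredoxin reductase, was at -0.13 ± 0.06, SELENON of the endoplasmic reticulum at -0.19 ± 0.09, and the deiodinase DIO3, which inactivates thyroid hormone, at -0.37 ± 0.22 (-0.21 without Mix animal 2).

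The abundant selenoproteins lay close to the midpoint. GPX1 averaged 12.72 ± 0.11 (SD, n = 4) in Mix, 12.70 ± 0.16 (n = 4) in OSe and 12.74 ± 0.06 (n = 5) in ISe, 0.0003 below the midpoint. SELENOW averaged 10.59 ± 0.09, 10.53 ± 0.11 and 10.64 ± 0.10 in the same groups, GPX4 10.57 ± 0.14, 10.50 ± 0.23 and 10.55 ± 0.11, and the selenium carrier SELENOP 10.73 ± 0.21, 10.76 ± 0.19 and 10.84 ± 0.13. None of these differences exceeded the spread between calves. Genes of selenium transport and selenocysteine synthesis split evenly, with 9 above, 8 below and 3 between of 20 members, and 0 had an unadjusted p under 0.05.

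Mitochondrial respiratory chain genes encoded in the nucleus lay below both in 42 of 67 members, with 13 above and a median of -0.06. The median was -0.03 without Mix animal 3 or without OSe animal 3, and quantile normalization gave 33 below, 20 above and a median of -0.02. NDUFA6 and UQCR10, subunits of complexes I and III, were at -0.18 ± 0.07 (SE) and -0.19 ± 0.08, and another complex I subunit, NDUFA9, at 0.15 ± 0.07. UQCR10 was at -0.13 without Mix animal 4. Of the cholesterol genes 7 lay below both, 7 between and 3 above. Those below were 11 without Mix animal 1 or ISe animal 4, 3 without Mix animal 2 and 4 without Mix animal 4, and those above were 8 without OSe animal 3 and 1 without OSe animal 4. Their median of -0.14 was 0.01 without OSe animal 3, whose list mean stood 0.92 above the midpoint. HSD17B7, of cholesterol and steroid synthesis, was at -0.55 ± 0.13, and at -0.44 or lower when any calf was left out.

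**Figure D4:**
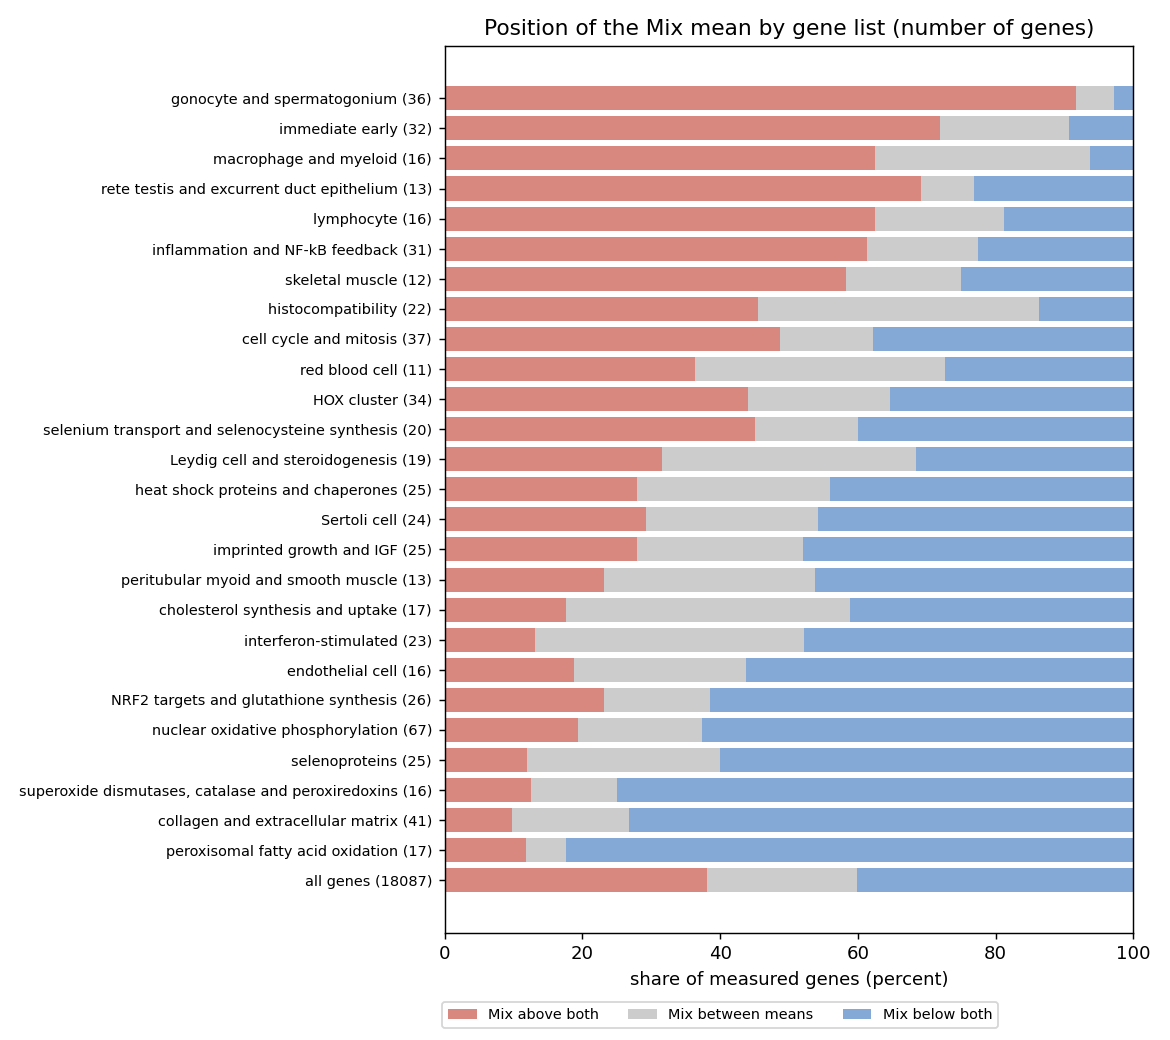
Bars give, for each gene list and for all genes (bottom), the share of measured genes whose Mix mean lay above both other means (red), between them (grey) or below both (blue), in percent, with the number of genes in parentheses. The gonocyte list has 33 of 36 genes above both and the peroxisomal list 14 of 17 below both, beside 38% and 40.1% over all genes.

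Genes of gonocytes and spermatogonia lay above both forms in 33 of 36 measured members, with 1 below, 2 between and a median of 0.23, and 6 had an unadjusted p under 0.05, all higher in Mix. ZBTB16, a transcription factor of undifferentiated spermatogonia, measured 10.50, 10.97, 10.85 and 11.14 in Mix, against 10.39, 10.61, 10.11 and 10.40 in OSe and 10.74, 10.70, 10.32, 10.31 and 10.30 in ISe. It lay 0.44 ± 0.13 (SE) above the midpoint. GFRA1, a receptor subunit for GDNF, measured 8.14, 8.24, 8.84 and 8.37 in Mix, against 8.21, 7.67, 7.95 and 7.70 in OSe and 7.88, 8.27, 7.63, 8.34 and 7.88 in ISe. DNMT3L, a cofactor of DNA methylation in germ cells, was at 0.24 ± 0.08 and the RNA-binding protein ELAVL2 at 0.47 ± 0.18.

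Mix animal 3 was the highest calf of this list. Its list mean stood 0.537 above the midpoint, against 0.119, 0.133 and 0.188 in Mix animals 1, 2 and 4, from -0.180 to 0.162 in OSe and from -0.324 to 0.326 in ISe. Without it the median was 0.13, 2 members had an unadjusted p under 0.05, ELAVL2 was at 0.31, and DDX4, a helicase of all germ cells, was at 0.21 in place of 0.41. The count of such members was 10 without ISe animal 4 or without OSe animal 1. The summed linear signal of the list ran from 14234 to 20172 in Mix, from 11668 to 14650 in OSe and from 10771 to 17173 in ISe. In whole testis, more germ cells and more RNA per germ cell cannot be told apart. ISe animal 4 was second in this list and also the low ISe calf of the peroxisomal list, and the part of germ cell content in the other lists was not tested.

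Collagen and extracellular matrix genes lay below both in 30 of 41 members, with 4 above and a median of -0.10. Without OSe animal 2 they were 19 of 41 and the median was -0.05. With all calves, 5 members were lower in Mix at an unadjusted p under 0.05 and 1 was higher. The 4 members named here were the first by p, all lower. FMOD, a small proteoglycan that binds collagen, measured 11.05, 10.59, 10.97 and 10.14 in Mix, against 11.23, 11.22, 11.06 and 11.20 in OSe and 11.35, 11.03, 11.55, 10.73 and 11.09 in ISe. Its difference of -0.48 ± 0.17 (SE) was -0.30 without Mix animal 4. LUM, a related proteoglycan, was at -0.95 ± 0.39, ASPN at -0.46 ± 0.19 and COL1A1, a chain of type I collagen, at -0.39 ± 0.17. Endothelial genes lay below both in 9 of 16 members, and in 4 of 16 without Mix animal 3. Among them TEK, the angiopoietin receptor, was at -0.31 ± 0.14, and at -0.20 without Mix animal 2. Peritubular and smooth muscle genes lay below both in 6 of 13, and in 10 without Mix animal 2.

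Sertoli cell genes lay below both in 11 of 24 members and above both in 7, or 3 without OSe animal 1 and 4 without OSe animal 4. The activin subunit INHBA was at -0.25 ± 0.11 (SE), transferrin, TF, at -0.43 ± 0.20 and follistatin, FST, at 0.20 ± 0.09. Without 1 calf each these were at -0.15 (Mix animal 4), -0.28 (Mix animal 2) and 0.11 (Mix animal 3). SOX9 averaged 8.52 ± 0.11 (SD) in Mix, 8.84 ± 0.25 in OSe and 8.54 ± 0.18 in ISe. Leydig cell genes split evenly, with 6 above, 6 below and 7 between of 19. Without Mix animal 2 they were 3 above and 10 below, without ISe animal 2 there were 10 below, and without OSe animal 1 there were 2 above. CYP17A1, an enzyme of androgen synthesis, ranged from 10.50 to 12.17 in Mix, from 10.38 to 12.77 in OSe and from 11.01 to 11.65 in ISe. CYP11A1, which makes pregnenolone, ranged from 9.81 to 11.20 in Mix, from 9.31 to 10.92 in OSe and from 9.59 to 10.39 in ISe. For CYP17A1 the Mix range lay within the OSe range. For CYP11A1 the groups overlapped in part, with Mix animals 2 and 4 above all other calves.

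Immediate early genes lay above both forms in 23 of 32 members, with 3 below and a median of 0.11. JUNB, a member of the AP-1 factors, measured 8.49, 8.82, 8.45 and 8.83 in Mix, against 8.23, 8.48, 8.67 and 8.35 in OSe and 8.44, 8.23, 8.38, 8.25 and 8.40 in ISe. It was at 0.26 ± 0.10 (SE), and SOCS3, a feedback inhibitor of cytokine signalling, at 0.21 ± 0.08. Mix animals 2 and 4 had the highest list means, 0.195 and 0.186, followed by OSe animal 2 at 0.176. Mix animals 1 and 3 were at 0.033 and 0.041, below ISe animal 4 at 0.103 and OSe animal 3 at 0.066.

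Inflammation and NF-κB feedback genes lay above both in 19 of 31 members, with 7 below and a median of 0.08, or 0.06 without Mix animal 4. The groups overlapped: the mean of the list per calf was 0.031, 0.018, 0.059 and 0.149 in Mix animals 1 to 4. It ran from -0.039 to 0.105 in OSe and from -0.113 to 0.092 in ISe. The summed linear signal ran from 8367 to 8931 in Mix, from 8391 to 9524 in OSe and from 7283 to 9814 in ISe. TNFAIP3, an inhibitor of NF-κB signalling, measured 8.77, 8.86, 8.72 and 8.80 in Mix, against 8.55, 8.62, 8.63 and 8.43 in OSe and 8.72, 8.41, 8.57, 8.61 and 8.47 in ISe. It lay 0.23 ± 0.07 (SE) above the midpoint. The granulocyte proteins S100A9 and S100A8 were at 0.26 ± 0.09 and 0.55 ± 0.21, the second at 0.35 without Mix animal 3. The alarmin IL33 went the other way, at -1.04 ± 0.26. It measured 7.90, 7.66, 7.83 and 7.82 in Mix, against 9.06, 9.56, 8.65 and 9.08 in OSe and 9.03, 8.07, 9.43, 7.75 and 8.74 in ISe, with only ISe animal 4 within the Mix range.

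Markers of blood-borne and other cells were read beside these lists. Macrophage and myeloid genes lay above both in 10 of 16 members, with 1 below and a median of 0.14, or 0.06 without Mix animal 3. Those below were 4 without ISe animal 1, 3 without Mix animal 3 and 2 without Mix animal 1, ISe animal 4 or ISe animal 5. The median calf by list mean was at 0.074 in Mix, 0.105 in OSe and 0.138 in ISe, so the middle calves ran opposite to the member counts. The summed linear signal of these genes ran from 8084 to 12032 in Mix, from 5763 to 10610 in OSe and from 6844 to 10588 in ISe. CD163, a scavenger receptor of macrophages, was at 0.42 ± 0.16 (SE). Lymphocyte genes lay above both in 10 of 16, but in 4 without Mix animal 1 and 6 without OSe animal 4. Within that list JCHAIN, the joining chain of secreted antibodies, was at -0.25 ± 0.06 with all Mix calves, at 5.88 to 6.06, below all others, at 6.18 to 6.44. These levels are dim, and all Mix arrays lay below the others at 0.209% of all probe sets. The granule enzyme GZMB was at -0.28 ± 0.12 and the B cell receptor component CD79A at 0.19 ± 0.09, and these were at -0.17 without Mix animal 3 and 0.09 without Mix animal 1.

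Genes of rete testis and excurrent duct epithelium lay above both in 9 of 13 members, with a median of 0.07, or 0.04 without OSe animal 1. KRT18, an epithelial keratin, measured 8.01, 8.25, 7.83 and 9.06 in Mix, against 7.67, 7.82, 7.41 and 7.89 in OSe and 7.70, 7.62, 7.61, 7.77 and 7.72 in ISe. Its difference of 0.60 ± 0.17 (SE) was 0.34 without Mix animal 4. The summed signal of that list ran from 1389 to 1717 in Mix, from 1224 to 1438 in OSe and from 1202 to 1401 in ISe. The part of these cells in the other results was not tested.

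The other lists lay near the share over all genes or moved with single calves. Histocompatibility genes had 9 of 22 between the means, interferon-stimulated genes 9 of 23, and red blood cell genes 4 of 11, against 21.9% of all genes. Above and below both were 10 and 3 histocompatibility genes, 3 and 11 interferon-stimulated genes, and 4 and 3 red blood cell genes. The interferon-stimulated genes above both were 9 without Mix animal 2 and 8 without ISe animal 1. Cell cycle genes had 18 above and 14 below of 37, HOX genes 15 above and 12 below of 34, heat shock and chaperone genes 7 above and 11 below of 25, imprinted growth and IGF genes 7 above and 12 below of 25, and skeletal muscle genes 7 above and 3 below of 12. Single calves moved several of these counts: the histocompatibility genes above both were 10, and 3 without OSe animal 4, while the cell cycle genes below both were 8 without OSe animal 2 and 9 without ISe animal 2. The genes above both were 4 for heat shock without Mix animal 4 or OSe animal 2, 3 for imprinted genes without Mix animal 2 or OSe animal 3, and 4 for skeletal muscle without OSe animal 3. Single members with an unadjusted p under 0.05 were the interferon response factor IRF1 at 0.33 ± 0.15 (SE), the replication helicase subunit MCM4 at 0.26 ± 0.10, the heat shock factor HSF1 at 0.24 ± 0.10 and the muscle actin ACTA1 at 0.26 ± 0.08. On the lower side were the imprinted cell cycle inhibitor CDKN1C at -0.36 ± 0.16, the imprinted gene NNAT at -0.43 ± 0.18 and the homeobox genes HOXD8 at -0.20 ± 0.08 and HOXC6 at -0.43 ± 0.17, the last at -0.27 without Mix animal 4. The estrogen sulfotransferase SULT1E1 of the Leydig list was at 0.20 ± 0.08, at a dim level.

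**Figure D5:**
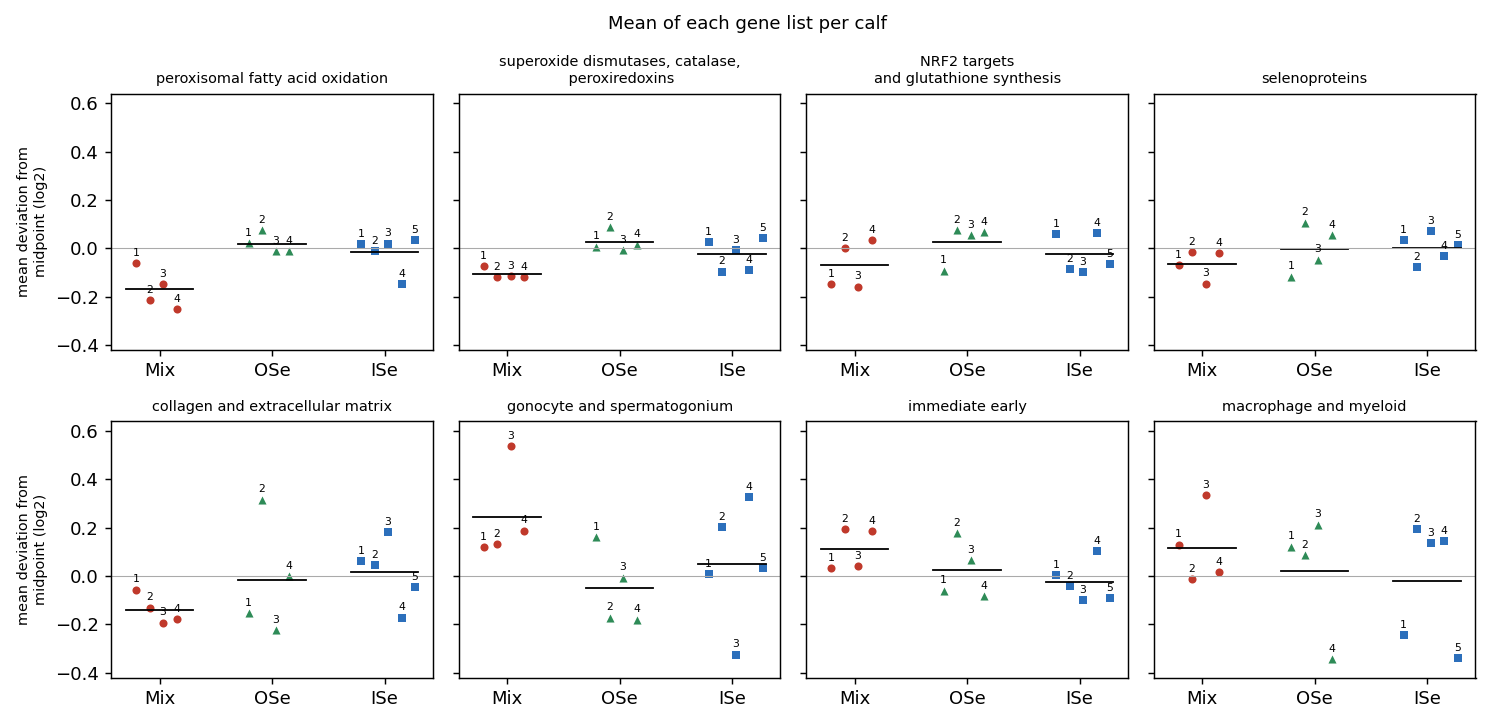
Each point is the mean over the genes of a list in 1 calf, as the log2 difference from the midpoint of the OSe and ISe means (vertical axis), numbered by animal, for 8 lists. Circles are Mix, triangles OSe and squares ISe, and black lines are group means. Mix animals 2, 3 and 4 lie at -0.213, -0.147 and -0.250 in the peroxisomal list, and Mix animal 3 stands at 0.537 in the gonocyte list.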

How the data were processed

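Testis RNA of 13 calves was measured on Affymetrix arrays, with biotin-labelled cRNA made by oligo(dT) priming from Trizol extracts, per the labels' protocols. The deposited table held log2 signals for each probe set on each array, as the authors processed them. GCOS 1.2 and Partek 6.4 were named, per the submitters' processing notes. That they are log2 was inferred from their range, 2.07 to 14.6. How background, probe summary, normalization and centring were handled is not given in the sources used here. Annotation gave 1 symbol to 18550 probe sets, several to 595 and none to 7628. Of 18166 with 1 gene identifier, 17996 matched the RefSeq gene table of ARS-UCD2.0, which changed 0 symbols. No sequences are shown, because none was used here.

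A model with group means was fitted to all 13 arrays in limma 3.58.1 (R 4.3.3), with empirical Bayes moderation, two-sided tests and Benjamini-Hochberg adjustment over all probe sets. The contrast was Mix minus the midpoint of OSe and ISe. Being beyond both forms was tested by the larger of the p-values of Mix minus OSe and Mix minus ISe with the same sign. SE comes from the fit and SD from the calves of a group. Named genes had exactly 1 symbol, no placeholder name and a mean above the 25th percentile (6.26): the 10 of smallest p on each side outside the interval and the 5 of smallest p of OSe minus ISe on each side within it. Up to 4 members per list by p and 12 fixed genes were added. A gene in a list was its brightest probe set. Members and lists were chosen with earlier results of these data known. Labels give animal numbers, which mark different calves. The fit was tested on simulated data. Alternatives were quantile normalization, median centring, filters on dim or unnamed probe sets, pooling the 9 other calves, other moderation, array weights, animal number as a block and leaving out each calf. Figures used matplotlib 3.10.9 (Python 3.11.15).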

Additional observations from a re-analysis of the deposited data

Results flagged for a closer look

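Among 85 named genes, 255 groups of 4 or 5 calves were searched for a calf that stood apart by Dixon's criterion at 95%, and 9 were found. Chance gives about 1 in 20 groups. In Mix, animal 3 stood apart in 4 genes: MCTP2 at 7.14 (others 7.20 to 7.21), FST at 7.53 (others 7.14 to 7.16), HSF1 at 10.52 (others 10.33 to 10.34) and DDX4 at 9.72 (others 8.86 to 8.99). In OSe, ZNF572 was at 7.89 in animal 2 (others 7.74 to 7.75) and HOXB9 at 6.34 in animal 1 (others 6.46 to 6.49). In ISe, animal 5 was at 7.95 for ZNF572 (others 7.74 to 7.78) and at 6.56 for CD163 (others 7.16 to 7.35), and animal 3 was at 9.42 for MCM4 (others 9.90 to 10.04).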

How the results depend on the processing

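No probe set passed the adjusted test for Mix minus midpoint under any of 22 alternatives. In that test the adjusted p of RNF141 ran from 0.054 to 0.784 over the settings. The unadjusted counts higher and lower in Mix, 717 and 1264 as reported, were 896 and 1027 after quantile normalization and 527 and 1016 with a replicate block. Animal numbers mark different calves. Over 12 pairs of equal number the deviations correlated at -0.151 to 0.101, with 1 over 0.1. Pairs of unequal number correlated at -0.264 to 0.289. The samples were therefore not treated as paired, and a batch shared by number was not tested. Leaving out 1 calf gave 574 to 971 higher and 917 to 1649 lower, 72.8% to 78.0% of probe sets outside the interval, and 102 to 247 above and 176 to 520 below both forms. All remaining Mix arrays stood apart at 39 to 135 probe sets above and 61 to 204 below. In recounts chosen after seeing the data, leaving out 1 calf gave 9025 to 10768 above and 9605 to 11235 below both means, 356 to 870 above and 735 to 1295 below by over 0.25, and 27 to 69 above and 81 to 183 below by over 0.5.

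For OSe minus ISe, 512 higher and 189 lower as reported, the counts were 323 and 105 among probe sets above the 25th percentile and 331 and 106 among those with 1 symbol, where fewer were tested. The lower count was 332 after quantile normalization, 313 after median centring and 362 with array weights. Leaving out 1 calf gave 262 to 745 higher and 158 to 371 lower, and the 262 and the 371 both came without OSe animal 2, where the excess turned round.

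Of 1857 values of named genes under the alternatives, 23 changed sign, all in the 5 genes named next. GPX1 was at 0.013 after quantile normalization, 0.0086 after median centring and 0.018 with array weights, and at -0.036 to 0.039 without 1 calf. SELENOW was at 0.025, 0.0067 and 0.000401 under the same settings, at 0.0049 with the replicate block, and at -0.035 to 0.037 without 1 calf. Without 1 calf INSL3 was at -0.0047 to 0.16, CYP17A1 at -0.35 to 0.21 and SELENOP at -0.17 to 0.0081. The cause of these moves was not tested.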
